A study of Rattus norvegicus with 8 samples.

Results

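Transcripts of the enzymes that build and break down glycogen were compared between the orbital and the global layer of the extraocular muscles of adult rats, which turn the eye. The genes were taken by symbol: the muscle and brain glycogen phosphorylases Pygm and Pygb, the phosphorylase kinase subunits Phka1, Phkb, Phkg1 and Phkg2, glycogen synthase Gys1, the branching enzyme Gbe1, glycogenin Gyg1 and phosphoglucomutase Pgm1. Every probe set annotated to exactly 1 of these symbols was used, which gave 14 probe sets for all 10 genes, of 15866 probe sets on the array that are not controls. The orbital layer lies toward the bone of the orbit and the global layer toward the eyeball, and tissue of each was cut from sections by laser. There were 4 samples of the orbital layer, called captures here, and 4 of the global layer, each from adult rat and each hybridised to 1 array after amplification of its RNA. The labels name no strain, sex or treatment and do not tie captures to animals. Captures of the same layer that share an animal would make the p-values too small. Animals shared between layers would be a pairing that the model of layer alone leaves out. The p-values take in the spread among these captures alone. The titles carry a prefix, R2 or R3, whose meaning the labels do not give, and each prefix holds 2 captures of each layer. The titles of orbital captures 3 and 4 differ only by a suffix, so these may be arrays of 1 capture, which would make 3 orbital captures in place of 4. With their mean used as 1 sample, 5 of the 6 probe sets called below were still lower, and Gyg1 was not (adjusted p = 0.0632, limma).

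Glycogen is the branched store of glucose in muscle. Glycogenin starts a chain on itself, glycogen synthase lengthens it and the branching enzyme adds branch points. Phosphorylase cuts glucose off the chain ends as glucose 1-phosphate when contraction or adrenaline calls for fuel, and phosphoglucomutase turns this into glucose 6-phosphate, the entry to glycolysis. Phosphorylase kinase, built of alpha, beta and catalytic gamma subunits with calmodulin as its calcium sensor, switches phosphorylase on. Fast skeletal muscle fibres are known for a high capacity to break glycogen down, and loss of the muscle phosphorylase in humans causes McArdle disease, in which exercise brings cramps.

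Precision is limited by there being 8 arrays, whose median intensities ranged from 59.0 to 66.4. The highest of 27 bacterial control probe sets read between 17.7 and 41.5, and served as a mark of background. Probe sets of 6 skeletal muscle fibre genes, among them Acta1, Ckm and Ttn, summed to 20752 to 30426 in orbital captures and 24995 to 35169 in global captures, so both layers carried the defining transcripts of muscle. As a sign of RNA length, the signal at the 3′ end of Gapdh was divided by that at its 5′ end, a quotient that grows when RNA is short. It averaged 8.41 ± 3.21 for orbital captures and 5.79 ± 0.478 for global captures (SD, n = 4 each, p = 0.114 by a two-sided exact permutation test, 0.229 when adjusted for both genes examined). It was highest in orbital captures 3 (12.9) and 4 (8.64). For beta actin it averaged 8.43 ± 0.536 for orbital captures and 8.98 ± 1.43 for global captures (p = 0.600 by the same exact test, 0.600 adjusted).

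The pathway did not change evenly between layers. Pgm1, Pygm, the catalytic kinase subunit Phkg1 and glycogenin Gyg1 fell in the orbital layer, and Pygb, Phka1, Phkb, Phkg2, Gys1 and Gbe1 did not pass. All 14 probe sets passed the filter on dim signal. For Pygm 1383072_at and Phka1 1369357_at, this came only through the layer where they read higher. Of the 14, 6 were lower, 0 higher and 8 did not pass at an adjusted p under 0.05 (limma, Benjamini-Hochberg over 9520 probe sets). Over all probe sets tested, 3.50% were lower and 3.91% higher by the same rule, 7.41% in either direction. With a filter at the 60th percentile, which left out Pygm 1383072_at and Phka1 1369357_at, 5 of 10 probe sets were lower and 1 higher. Over all 6347 probe sets tested with that filter, 349 were lower and 397 higher. At an unadjusted p under 0.05, limma put 6 of the 14 lower and 2 higher, Phkb and Phka1 1369357_at, where it put 9.92% of all tested lower and 11.7% higher. All 4 orbital captures lay below all 4 global captures for 6 of the 14, against 6.75% of all tested, and above them for 1, against 7.31%. By the brightest probe set of each gene, 4 of 10 were lower and 0 higher, where 3.59% of 7163 genes were lower and 4.09% higher. The median log2 difference of the 14 was -0.23, beside 0.02 over all probe sets tested. Differences are log2 of orbital over global on the log2(intensity + 1) scale with their standard error (SE). In such tissue, fewer cells of a type and less RNA per cell cannot be told apart. The count of 6 did not hold under all settings: it was 2 when the orbital layer was cut to captures 1 and 2, 2 when the global layer was cut to captures 2 and 3, and 3 without the filter. It was 2 without orbital capture 2 or global capture 4, and 3 without orbital capture 3, global capture 1 or global capture 3. The 2 that stayed under every alternative were those of Pgm1.

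**Figure D1:**
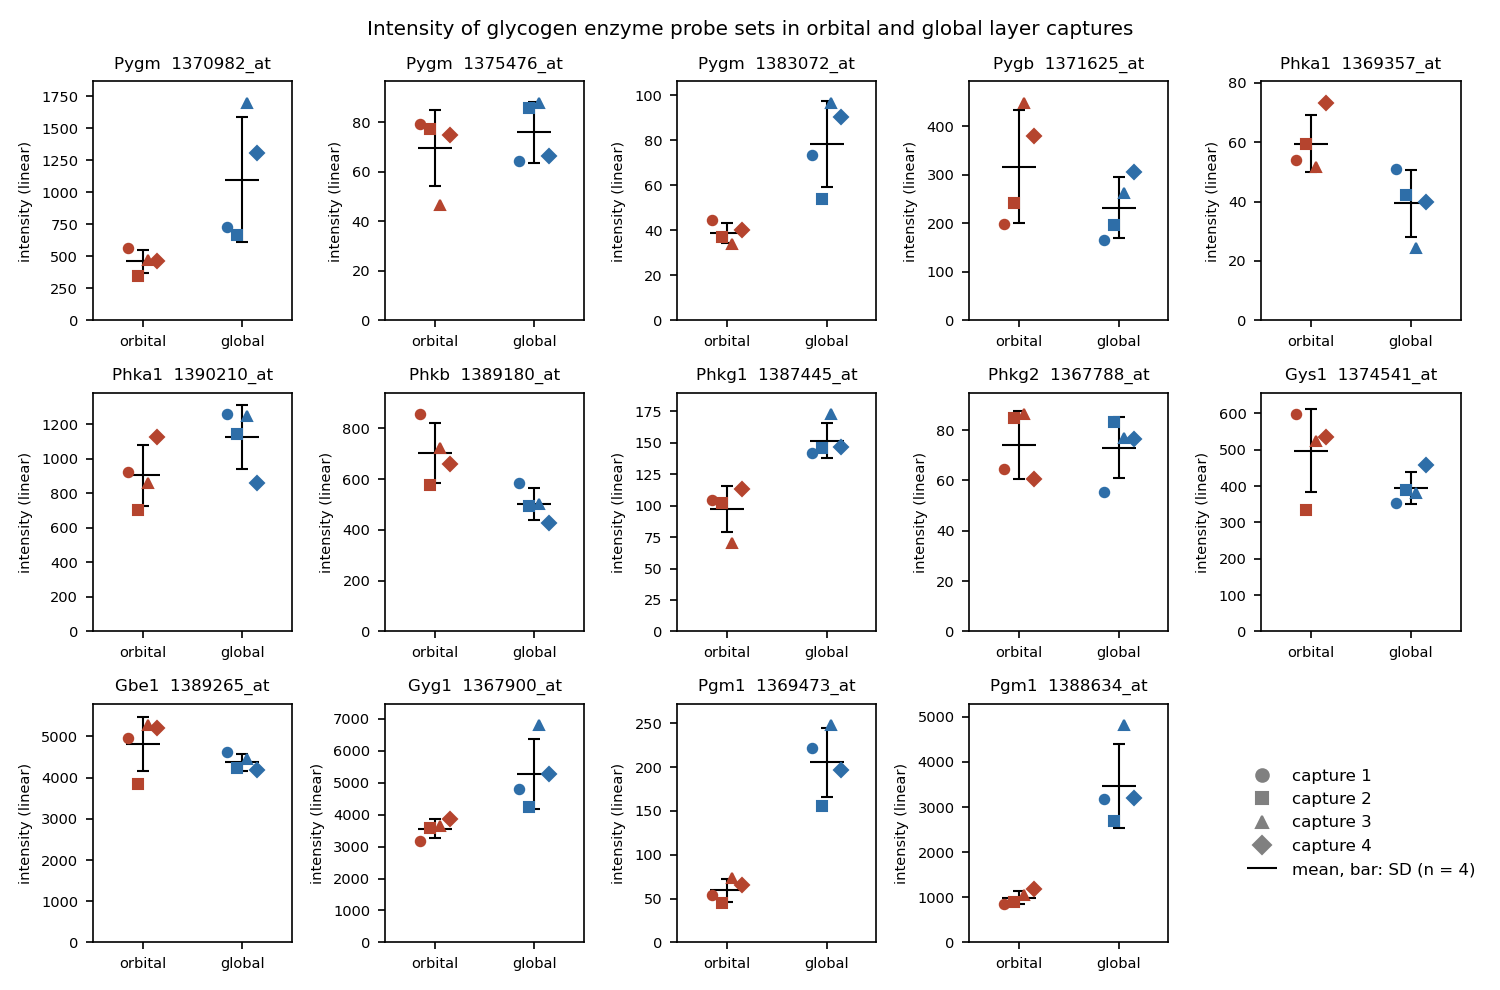
Intensity (linear axis from 0) of each of the 14 probe sets in the 4 orbital captures (left, red) and the 4 global captures (right, blue); symbols mark the capture number within its layer, the line is the mean and the bar the SD. Both probe sets of Pgm1 lie far lower in the orbital layer with no overlap, while Gbe1, Gys1, Pygb and Phkg2 overlap between layers.

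Muscle phosphorylase Pygm, the enzyme that releases glucose from glycogen, was 2.23-fold lower in the orbital layer at the brightest of its 3 probe sets. Its brightest probe set, 1370982_at, read 563, 346, 475 and 465 in orbital captures 1 to 4, against 726, 667, 1695 and 1309 in global captures 1 to 4. The layers did not overlap, and global captures 3 and 4 stood above global captures 1 and 2. The log2 difference was -1.16 ± 0.26 (SE, n = 4 per layer, adjusted p = 0.0168). A dimmer probe set, 1383072_at, read 44.4, 37.0, 33.7 and 40.1 in the orbital captures, against 73.5, 53.8, 96.4 and 90.2 in the global captures, again without overlap and again highest in global captures 3 and 4. It differed by -0.97 ± 0.24 (adjusted p = 0.0235). Its orbital mean of 38.8 lay under the filter intensity of 39.4, so this probe set passed the filter through the global layer. The other Pygm probe set, 1375476_at, disagreed with both: it read 79.2, 77.4, 46.7 and 74.9 in the orbital captures, against 64.3, 85.5, 87.6 and 66.2 in the global captures. These values overlap, and the difference of -0.14 ± 0.22 did not pass (adjusted p = 0.768). The files do not tell where on the transcript each of these probe sets lies. The call at 1370982_at was lost without orbital capture 2 (adjusted p = 0.0509) or global capture 4 (0.0512). That at 1383072_at was lost without orbital capture 2 or 3 or without global capture 1, 3 or 4 (0.0533 to 0.0821). It was also lost without the filter (0.0575).

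The size of the Pygm difference was not even over the title prefixes. Within R2 it was -0.66 at 1370982_at, and within R3 it was -1.66, with 2 captures per layer in each. The interaction of layer and prefix was -1.005 (unadjusted p = 0.0119), which did not pass over all probe sets (adjusted p = 0.9999, limma). Within R3 alone the layer difference passed (adjusted p = 0.00290), and within R2 alone it did not (0.307). For the other probe sets the interaction was between -0.70 at Pygm 1383072_at and 0.68 at Phka1 1369357_at, with unadjusted p of 0.143 and above.

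Pygb, the phosphorylase form known from brain, went the other way without passing. Probe set 1371625_at read 199, 241, 448 and 381 in the orbital captures, against 165, 196, 263 and 306 in the global captures. In both layers captures 3 and 4 were the higher ones, and the layers overlap. The difference was 0.41 ± 0.26 (adjusted p = 0.386), and it was -0.05 with orbital captures 1 and 2 alone. Because both readings come from 1 array, the log2 ratio of Pygm (1370982_at) over Pygb cancels any scaling of that array, and only its change between layers can be read. This pair and the pair Phkg1 and Phkb below were chosen after their values were seen, so they are given with no test. The ratio was 1.5, 0.52, 0.09 and 0.29 in orbital captures 1 to 4, against 2.13, 1.76, 2.68 and 2.1 in global captures 1 to 4. Orbital capture 1 came nearest to the global captures, and the layers did not overlap. Its mean was 0.60 ± 0.63 in orbital captures and 2.17 ± 0.38 in global captures (SD, n = 4 each), a difference of -1.57, which was -0.94 within R2 and -2.20 within R3.

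The transcript of Pygb overlapped between layers and did not pass, so only that of Pygm was called. The regions before the starts of both phosphorylase genes are shown as those of the pair in the ratio above. They are from RefSeq on build GRCr8, from 250 bases before to 50 bases after the annotated start, with the letters CANNTG, the E-box bound by myogenic factors, in capitals. That of Pygm lies at chr1:213119555-213119854 on the plus strand and that of Pygb at chr3:160071891-160072190 on the plus strand.
Pygm: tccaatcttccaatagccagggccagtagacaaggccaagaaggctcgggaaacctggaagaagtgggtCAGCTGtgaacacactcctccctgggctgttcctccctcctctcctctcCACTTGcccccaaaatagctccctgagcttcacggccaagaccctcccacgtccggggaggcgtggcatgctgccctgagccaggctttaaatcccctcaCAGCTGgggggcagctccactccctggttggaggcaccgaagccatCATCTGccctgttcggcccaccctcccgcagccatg
Pygb: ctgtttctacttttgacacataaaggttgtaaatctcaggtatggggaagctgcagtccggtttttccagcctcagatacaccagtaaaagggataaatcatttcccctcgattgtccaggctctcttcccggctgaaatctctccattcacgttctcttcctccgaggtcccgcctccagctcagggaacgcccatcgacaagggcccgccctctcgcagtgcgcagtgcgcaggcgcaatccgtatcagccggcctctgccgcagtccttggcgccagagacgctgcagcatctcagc
Pygm holds 4 matches to CANNTG, which reads alike on both strands, and Pygb holds 0. All 10 genes were matched in the promoter table by symbol, with Phkb entered at 2 starts. Of the 10 genes, 7 hold a CANNTG in this window (Pygm, Phka1, Phkg1, Phkg2, Gys1, Gbe1 and Gyg1), where 72.1% of 33469 promoters of the same length do. The letters GGGCGG of the GC box, on either strand, stand in 6 of 10 (Pygb, Phkb, Gys1, Gbe1, Gyg1 and Pgm1), against 33.1% of all. TATAAA stands in 2 (Gbe1 and Pgm1), against 14.2%. The MEF2 motif and TGACGT, part of the cyclic AMP response element, stand in 0 of 10, against 3.84% and 7.94%. Each motif was searched on both strands and counted whether or not it overlaps another, and a match is a description of sequence alone.

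The subunits of phosphorylase kinase, the enzyme that switches phosphorylase on, did not move as a block. Phkg1, the catalytic gamma subunit of muscle, read 104, 102, 70.5 and 113 in the orbital captures, against 142, 146, 173 and 147 in the global captures. The layers did not overlap, with orbital capture 3 lowest and global capture 3 highest. The difference was -0.65 ± 0.17 (adjusted p = 0.0371), a call that held without orbital capture 4 and was lost without each of the other captures in turn (0.0589 to 0.108). The call was also lost without the filter (0.0627) and with eBayes without trend (0.0523). Phkg2, the gamma subunit known from liver and testis, read 64.6, 84.9, 86.3 and 60.4 in the orbital captures, against 55.5, 83.2, 77.0 and 76.4 in the global captures. Its layers overlap over nearly their whole range, with a difference of 0.02 ± 0.21 (adjusted p = 0.972).

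Phkb, the regulatory beta subunit, leaned the opposite way to Phkg1. It read 856, 578, 722 and 660 in the orbital captures, against 584, 495, 502 and 426 in the global captures. Orbital capture 2 alone fell within the global range, just under global capture 1. The difference of 0.48 ± 0.15 missed the threshold (adjusted p = 0.0656), and it passed without orbital capture 2 (0.0441), with quantile normalization (0.0492), with captures averaged per layer and prefix (0.0199) and with a filter at the 60th percentile (0.04997). The within-array log2 ratio of Phkg1 over Phkb was -3.03, -2.49, -3.34 and -2.54 in the orbital captures, against -2.04, -1.75, -1.53 and -1.53 in the global captures. These did not overlap, and their means differed by -1.13, a value between -1.40 and -0.86 over 25 alternatives.

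Phka1, the regulatory alpha subunit of muscle, gave opposite signs at its probe sets, and neither passed. The brighter one, 1390210_at, read 924, 704, 863 and 1126 in the orbital captures, against 1259, 1145, 1249 and 861 in the global captures, which overlap through orbital capture 4 and global capture 4. It differed by -0.32 ± 0.16 (adjusted p = 0.282). The dim one, 1369357_at, read 54.1, 59.4, 51.5 and 73.1 in the orbital captures, against 51.0, 42.3, 24.3 and 39.8 in the global captures. It was the 1 probe set of the 14 that was higher in the orbital layer without overlap, by 0.62 ± 0.26 (adjusted p = 0.194), and in global capture 4 it was under the background mark of that array. Its global mean of 39.35 lay just under the filter intensity of 39.36, so it passed the filter through the orbital layer. The alpha subunit thus gave no settled direction between layers.

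**Figure D2:**
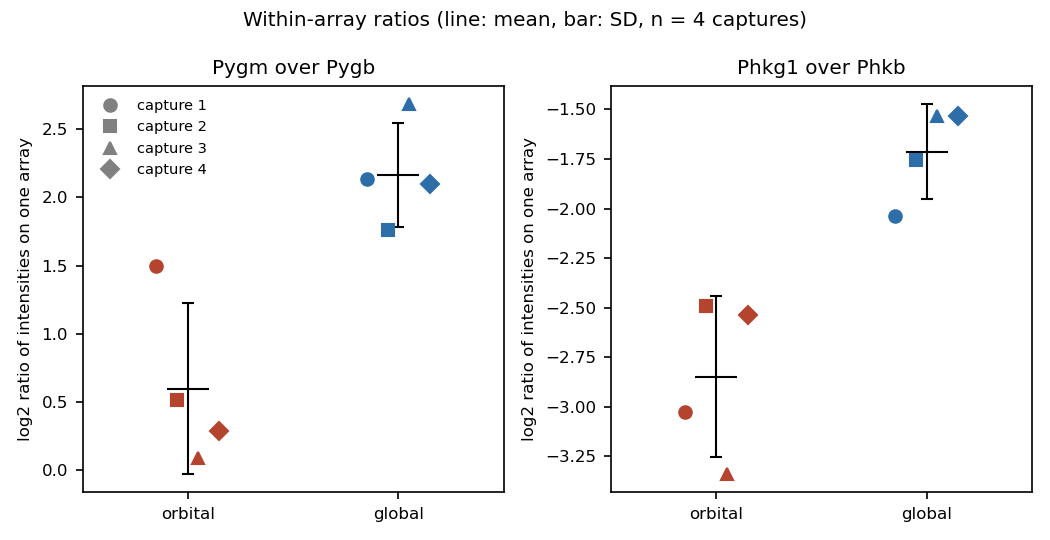
Log2 ratio of the intensities of Pygm over Pygb (left) and of Phkg1 over Phkb (right) on each array, for the 4 orbital captures (red) and the 4 global captures (blue), with mean and SD. All orbital captures lie below all global captures in both panels, and orbital capture 1 is the nearest to the global captures for Pygm over Pygb.

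Among the genes of glycogen synthesis, the primer protein was lower in the orbital layer and the enzymes that extend and branch the chain did not pass. Gyg1, glycogenin, read 3190, 3569, 3637 and 3877 in the orbital captures, against 4814, 4242, 6805 and 5283 in the global captures. The layers did not overlap, and the difference was -0.55 ± 0.15 (adjusted p = 0.0466). This call stood close to the threshold and held without global capture 2, but was lost without each of the other captures in turn (0.0550 to 0.129) and without the filter (0.125). Gys1, the glycogen synthase of muscle, read 598, 334, 523 and 534 in the orbital captures, against 354, 390, 382 and 457 in the global captures. Of the 4 orbital captures, 3 lay above all global captures and orbital capture 2 lay below them all, with a difference of 0.30 ± 0.17 (adjusted p = 0.342). Gbe1, the branching enzyme, read 4960, 3857, 5273 and 5206 in the orbital captures, against 4631, 4229, 4444 and 4191 in the global captures. Here too orbital capture 2 was the lowest of all 8, and the difference was 0.13 ± 0.13 (adjusted p = 0.635). On leaving out each capture in turn, the Gys1 difference was 0.20 to 0.48 (limma, adjusted p of 0.0629 to 0.583). That of Gbe1 was 0.08 to 0.24 (0.329 to 0.813). Both were largest without orbital capture 2.

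Pgm1, phosphoglucomutase, which joins glycogen to glycolysis in both directions, had the largest difference of the 10 genes. The bright probe set, 1388634_at, read 847, 903, 1054 and 1175 in the orbital captures, against 3189, 2681, 4815 and 3199 in the global captures. The lowest global capture stood far above the highest orbital capture. Means were 995 ± 149 in orbital captures and 3471 ± 928 in global captures (SD, n = 4 each), which differ on the log2 scale by -1.78 ± 0.18 (adjusted p = 6.6e-05), or 3.43-fold lower. The dim probe set, 1369473_at, read 53.6, 44.7, 73.8 and 65.1 in the orbital captures, against 222, 155, 248 and 197 in the global captures, with a difference of -1.78 ± 0.20 (adjusted p = 0.000166). The probe sets thus gave like sizes at intensities far apart. Within R2 the difference was -1.74 at the bright and -1.90 at the dim probe set, and within R3 -1.82 and -1.66. Both passed under all 25 alternatives, with differences of -1.95 to -1.61 at 1388634_at and -2.03 to -1.12 at 1369473_at, where the smallest came with a pseudocount of 64.

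The region before the annotated start of Pgm1 is shown as that of the gene with the largest difference. It lies at chr5:119710484-119710783 on the plus strand (RefSeq, GRCr8), again with CANNTG in capitals.
Pgm1: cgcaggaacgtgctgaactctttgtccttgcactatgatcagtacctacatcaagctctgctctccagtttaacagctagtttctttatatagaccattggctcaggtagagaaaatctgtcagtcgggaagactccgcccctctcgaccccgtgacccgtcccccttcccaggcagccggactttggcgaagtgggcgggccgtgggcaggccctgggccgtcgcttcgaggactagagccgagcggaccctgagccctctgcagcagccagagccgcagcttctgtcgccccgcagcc
It holds 0 matches to CANNTG, 1 to TATAAA and 2 to GGGCGG or its reverse complement. Pgm1 and Pygm, both lower in the orbital layer, thus do not share any of the 5 motifs searched in this window.

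**Figure D3:**
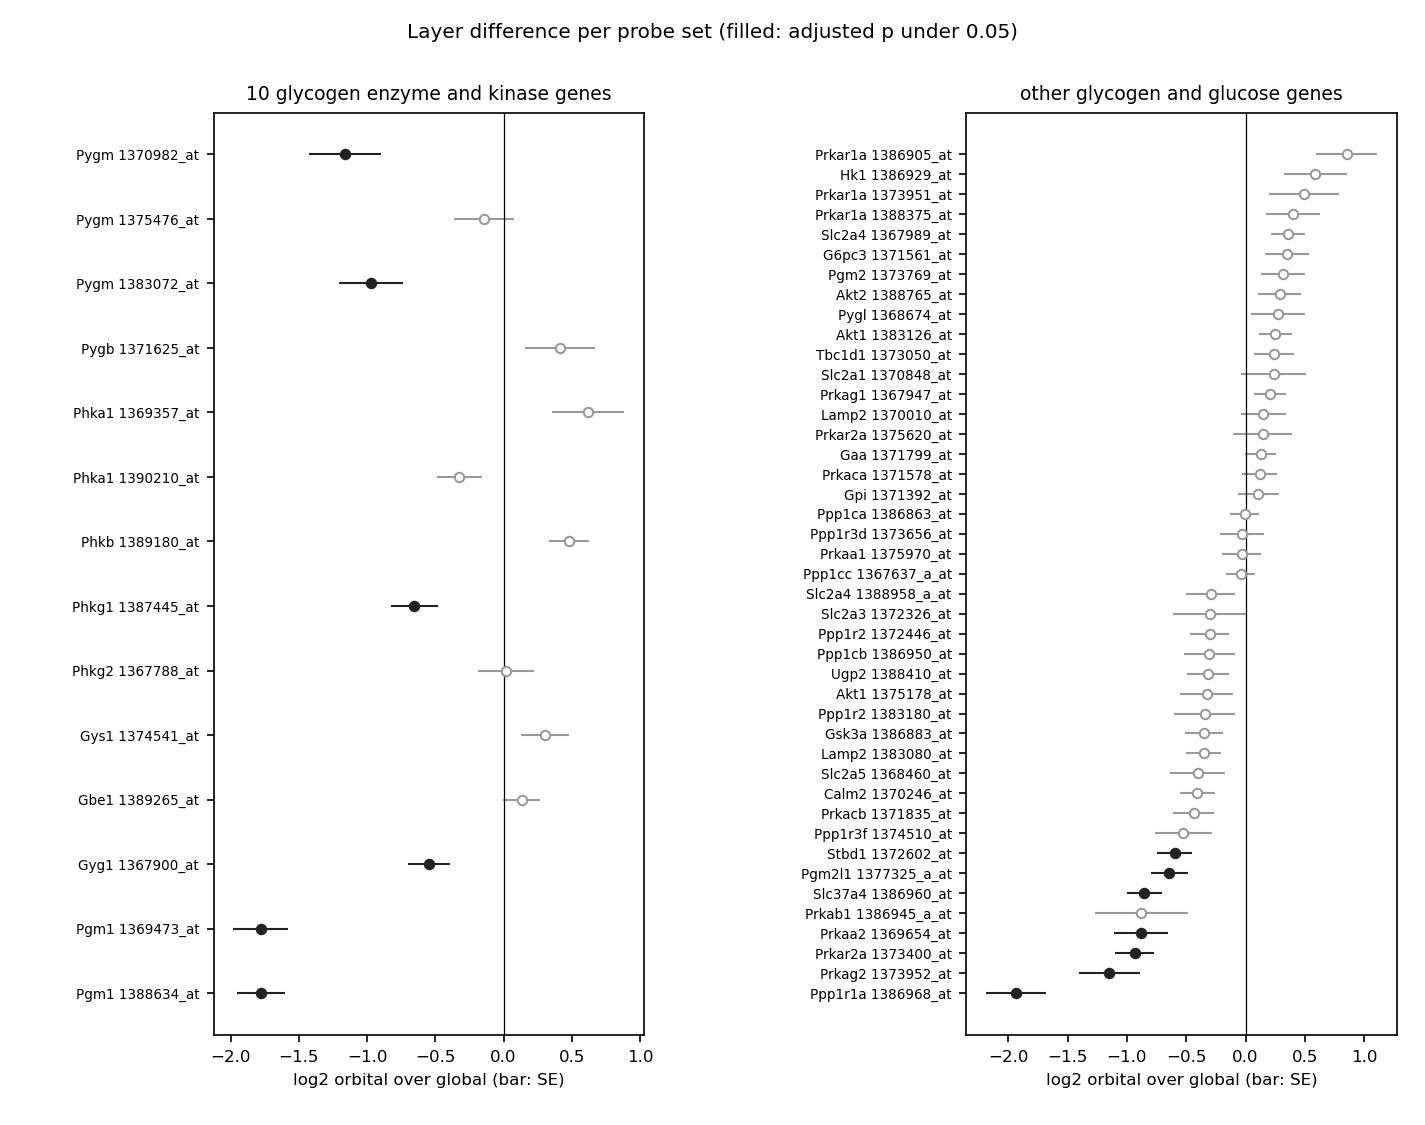
Log2 orbital over global with its SE for the 14 probe sets of the 10 glycogen genes (left) and the 43 tested probe sets of other glycogen and glucose genes (right, sorted); filled points passed at an adjusted p under 0.05. The filled points all lie left of 0, with Pgm1 furthest left among the 10 genes and Ppp1r1a among the others.

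Other genes of glycogen metabolism and its control were read from 4 lists of textbook members. Of 60 genes listed, 44 had a probe set, and 43 probe sets were tested, of which 7 were lower, 0 higher and 36 did not pass. Over all probe sets tested, 3.50% were lower and 3.91% higher by the same rule. At an unadjusted p under 0.05, limma put 13 of the 43 lower and 3 higher (Prkar1a, Slc2a4 and Hk1), against 9.92% and 11.7% of all tested. The median log2 difference of these 43 was -0.04.

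In the list of other glycogen enzymes and glycogen-binding proteins, 2 of 6 tested probe sets fell and 0 rose, against 3.50% and 3.91% of all tested. The probe set of Gaa is counted here and in the lysosomal list below, and once among the 43. Stbd1, a protein that tethers glycogen to membranes, read 323, 299, 314 and 423 in the orbital captures, against 537, 465, 457 and 590 in the global captures, without overlap (-0.60 ± 0.14, adjusted p = 0.0233). Pgm2l1, a relative of phosphoglucomutase that makes glucose 1,6-bisphosphate, the cofactor of Pgm1, differed by -0.64 ± 0.16 (adjusted p = 0.0249). Each of these calls held on leaving out only 3 of the 8 captures in turn, with adjusted p of up to 0.0678 for Stbd1 and 0.0813 for Pgm2l1. Ugp2, which makes the UDP-glucose that synthase uses, differed by -0.32 ± 0.18 (adjusted p = 0.336). Pgm2 differed by 0.32 ± 0.18 (0.347) and the liver phosphorylase Pygl by 0.27 ± 0.22 (0.533).

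Among the phosphatases and kinases that control the pathway, 4 of 22 tested probe sets fell and 0 rose, against 3.50% and 3.91%. Ppp1r1a, an inhibitor of protein phosphatase that protein kinase A activates, read 67.4, 71.0, 119 and 49.9 in the orbital captures, against 288, 201, 390 and 281 in the global captures. Its difference of -1.93 ± 0.25 (adjusted p = 0.000462) stands beside -1.78 for Pgm1, and it passed under all 25 alternatives. Prkar2a, a regulatory subunit of protein kinase A, differed by -0.93 ± 0.16 at 1373400_at (adjusted p = 0.00353) and by 0.15 ± 0.25 at 1375620_at without passing. Of 5 tested probe sets for subunits of AMP-activated kinase, 2 fell. Prkag2, a gamma subunit, differed by -1.15 ± 0.26 (adjusted p = 0.0169), and Prkaa2, the alpha subunit of muscle, by -0.88 ± 0.23 (0.0312). The Prkag2 call was lost without global capture 3 (0.0606), and that of Prkaa2 held only without orbital capture 1 or global capture 2 (up to 0.0965 without another). The alpha subunit Prkaa1 differed by -0.03 at 1375970_at (0.933), the beta subunit Prkab1 by -0.88 ± 0.39 (0.217) and the gamma subunit Prkag1 by 0.21 ± 0.13 (0.407). Prkar1a, another regulatory subunit of protein kinase A, had differences of 0.40 to 0.85 at its 3 probe sets and did not pass (0.0613 at the lowest). At that probe set, 1386905_at, it passed without orbital capture 1 or global capture 2 (0.0255 at the lowest). Calm2, a calmodulin gene, differed by -0.41 ± 0.15 (0.125) and Prkacb, a catalytic subunit of protein kinase A, by -0.44 ± 0.17 (0.166).

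Glucose entry and its phosphorylation gave no call. Of 11 tested probe sets 0 fell and 0 rose, against 3.50% and 3.91% of all tested. At an unadjusted p under 0.05, limma put 0 lower (9.92% of all tested) and 2 higher (11.7%). These were the insulin-dependent transporter Slc2a4 at 1367989_at (0.36 ± 0.15, adjusted p = 0.172), whose other probe set differed by -0.29, and hexokinase Hk1 (0.59 ± 0.26, 0.213). The kinase Akt1, which carries the insulin signal, differed by 0.25 ± 0.14 at 1383126_at (0.329) and by -0.33 ± 0.23 at 1375178_at (0.444). In the list of lysosomal breakdown and glucose 6-phosphate release, 1 of 5 tested probe sets fell, against 3.50% of all tested. That was Slc37a4, the carrier of glucose 6-phosphate into the endoplasmic reticulum, at 238, 229, 252 and 243 in the orbital captures, against 444, 346, 558 and 417 in the global captures (-0.85 ± 0.15, adjusted p = 0.00327). The orbital captures lay within a narrow range and the global captures spread over a wide one. Lamp2, a lysosomal membrane protein, differed by -0.35 ± 0.15 at 1383080_at (adjusted p = 0.175) and by 0.15 ± 0.19 at 1370010_at (0.711). G6pc3, a glucose 6-phosphatase, had orbital captures above all global captures, by 0.35 ± 0.19 (0.307). Gaa, the lysosomal glucosidase, differed by 0.13 ± 0.13 (0.635).

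**Figure D4:**
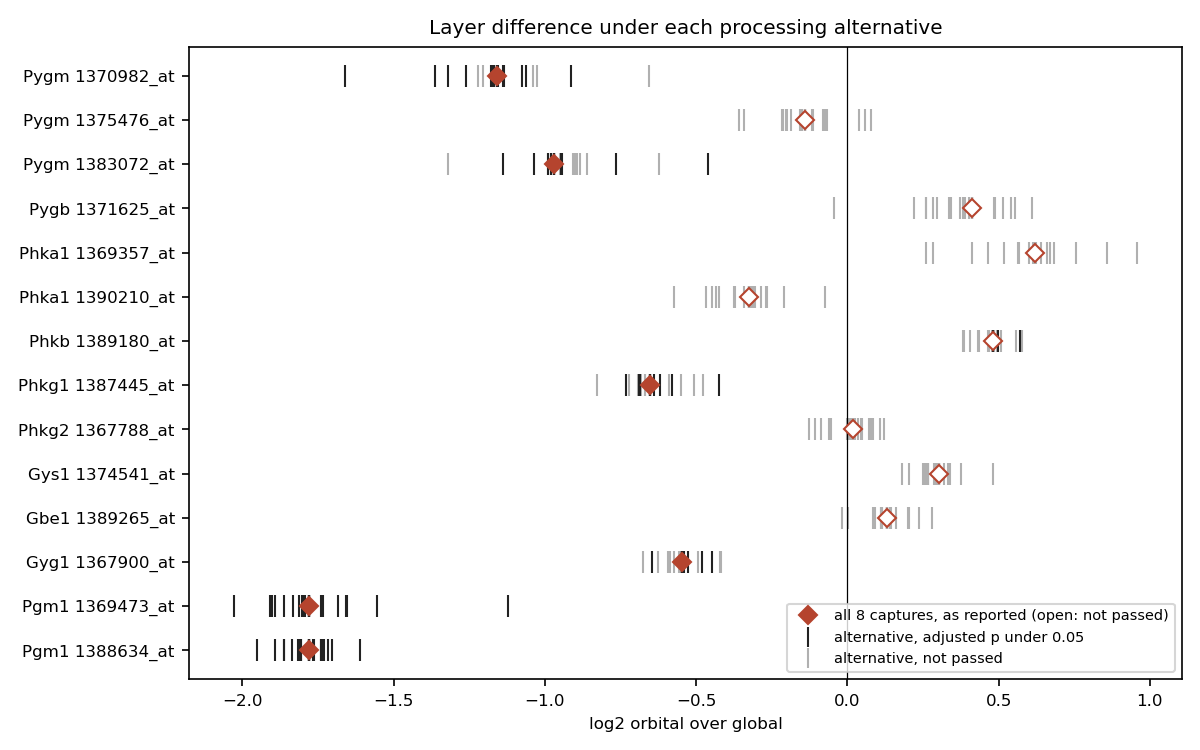
Log2 orbital over global of each of the 14 probe sets with all 8 captures (red diamond, filled where it passed) and under each processing alternative (ticks, dark where the adjusted p was under 0.05). The Pgm1 ticks are all dark, from -2.03 to -1.12 at 1369473_at and from -1.95 to -1.61 at 1388634_at, while Pygm, Phkg1 and Gyg1 hold dark and pale ticks.

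Some transcripts that mark fibre types differed between layers beside these genes. Beside the marker counts below, 3.50% of all tested probe sets were lower and 3.91% higher by the same rule. A single call in a short list does not show a layer difference in a cell type. Of 15 tested probe sets of 10 fast fibre markers, 6 were lower in the orbital layer (Actn3, Pvalb, Atp2a1, Myoz1 and both of Mybpc2), 0 were higher, and the median difference was -0.55. The other 9 did not pass, among them 5 of Myh1 at -0.09 to 0.22, Tnnc2 at -0.13 and Myh4 at -1.12 ± 0.32 (adjusted p = 0.0515). Their summed intensity was 38395 to 55402 in orbital captures and 63737 to 104124 in global captures, and 0 of the 15 were under background in all captures. Of the markers of other cell types, 2 of 7 tested probe sets were higher for Schwann cell and nerve, 1 of 4 was higher for endothelium and 1 of 5 was lower for smooth muscle and pericytes. Their sums were 2892 to 5282 in orbital captures and 1610 to 4872 in global captures for Schwann cell and nerve. They were 671 to 995 in orbital captures and 598 to 708 in global captures for endothelium. For smooth muscle and pericytes they were 769 to 924 in orbital captures and 1010 to 1067 in global captures. The endothelial call was that of Eng. Its global mean of 32.7 lay under the filter intensity of 39.4, so it passed the filter through the orbital layer. Of 3 extraocular and developmental myosin genes, Myh3 (2.92 ± 0.74, adjusted p = 0.0290) and Myh8 (1.56 ± 0.21, 0.000506) were higher in the orbital layer and Myh13 did not pass (0.24 ± 0.17, 0.468). Of the 6 skeletal muscle fibre genes, Ttn (-0.70 ± 0.15, 0.00980) and Tpm2 (-0.80 ± 0.12, 0.00139) were lower and Mb (0.82 ± 0.14, 0.00290) was higher. The summed levels of the myosin list were 27546 to 41392 in orbital captures and 13826 to 20625 in global captures. Slow and cardiac fibre markers went both ways, with 5 of 14 tested probe sets lower and 5 higher, and no gene had calls in both directions. The lower ones were those of Myh7, Myl3, Myl2 at 1388200_at and both of Tnni1, each at -1.13 or below. The higher ones were those of Myh6, Tnnt2, Casq2 at 1368988_at and Atp2a2 at 1369065_a_at and 1370426_a_at, each at 0.60 or above. The other 4 did not pass, among them Tnnt1 at -0.07 (adjusted p = 0.858). None of the tested markers of fibroblasts (7), blood (3), adipocytes (1) and photoreceptors (2) passed in limma, while the photoreceptor sums were 239 to 1043 in orbital captures and 13.9 to 503 in global captures. The part of any of these cell or fibre types in the glycogen gene differences was not tested.

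The genes whose profile over the 8 captures lay nearest to that of Pygm and Pgm1 were named by the root mean square difference of centred log2 values. For Pygm (1370982_at), the nearest of 1950 probe sets outside the lists were those of Pfkm (0.234), the phosphofructokinase of muscle, Plpp7 (0.289), Cox20 (0.300), Atp2a1 (0.303), the calcium pump of fast fibres, and Ryr1 (0.304), the calcium release channel. Between layers these 5 differed by -1.07 to -0.76, and Pfkm did not pass (adjusted p = 0.206). Like Pygm, all 5 were highest in global capture 3. For Pgm1 (1388634_at), the nearest of 957 were Nudt4 (0.166), Sar1b (0.219), Cacng1 (0.221), which belongs to the calcium channel of muscle, Ppp3ca (0.237), a catalytic subunit of calcineurin, and Myoz1 (0.240), a Z-disc protein that binds calcineurin. These 5 differed by -1.83 to -1.37 between layers and, like Pgm1, were highest in global capture 3. The orbital means of Cox20 (32.6) and Cacng1 (30.4) lay under the filter intensity of 39.4, so both passed the filter through the global layer. The distance is a description over 8 captures that share layers and arrays. Each set of 5 was chosen by nearness over these same captures, so like peaks and like layer differences come with the choice.

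**Figure D5:**
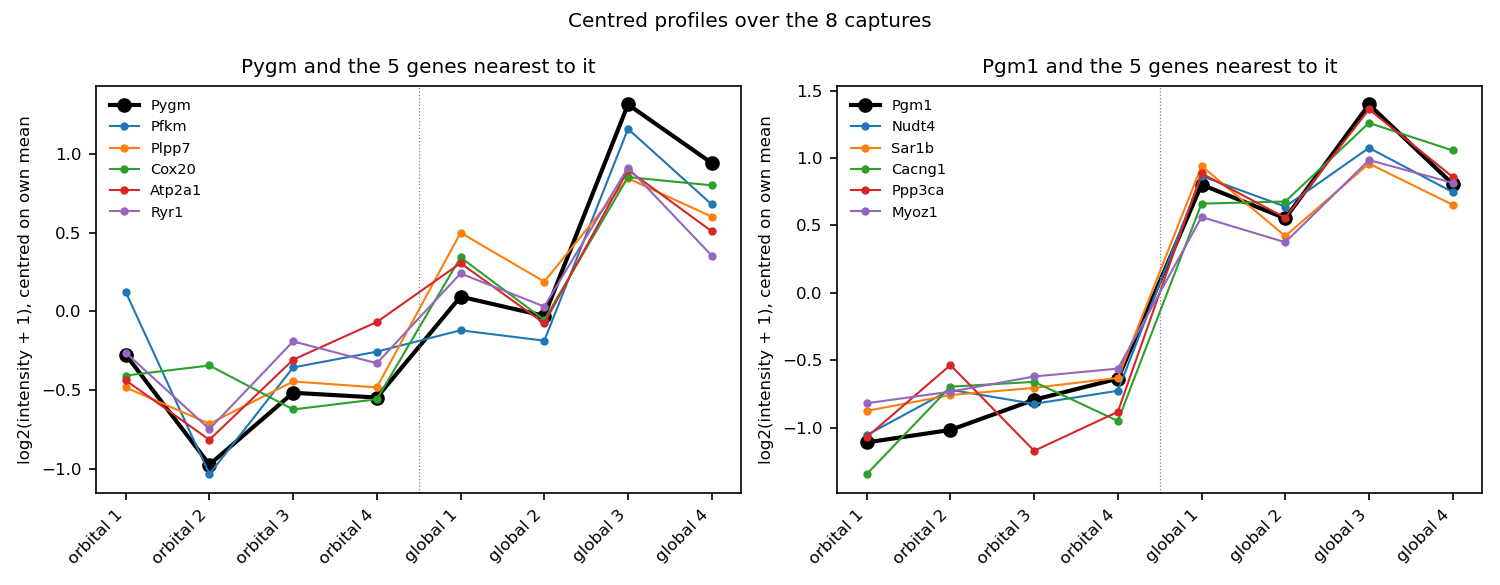
Log2(intensity + 1) centred on each gene's own mean in orbital captures 1 to 4 and global captures 1 to 4, for Pygm (left) and Pgm1 (right) in black with the 5 nearest genes in colour; lines only join the points of a gene. Pygm, Pgm1 and all their neighbours are highest in global capture 3. The layers separate without overlap for all of them but Pfkm and Atp2a1, neighbours of Pygm. The neighbours were chosen for likeness over these same captures.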

How the data were processed

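Per the labels, T7-based amplification preceded hybridisation of each laser-cut sample to an Affymetrix ratRAE230A array. In the deposited table the authors give 1 linear intensity for each probe set on each array. Which software summarised the probes is not given in the sources used here. The authors' values share one scale, since means trimmed by 2% agree across the 8 arrays to within 0.0039%, and were used as deposited. Levels are therefore relative to the other transcripts of an array, and amplification can distort them.

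The source label gave each capture its layer, 4 each, and captures were numbered in accession order. Leaving out 57 controls among 15923 probe sets, 9520 were tested, those with a mean log2 at or above the 40th percentile (intensity 39.4). Layers were compared on log2(intensity + 1) by lmFit and eBayes with trend (limma 3.58.1 in R 4.3.3), in a model of layer alone. Adjustment was by Benjamini-Hochberg with a threshold of 0.05, and the script was tested on simulated data. Quality ratios used exact permutation tests (SciPy 1.17.1). Names come from the platform's annotation: 12783 probe sets have 1 symbol, 312 several and 2771 none. All 10 genes were found in a current gene table, with 0 symbols changed. No genome sequence was used beyond RefSeq's table of promoters (GRCr8). The genes and lists were chosen with earlier results of these data known. Outside the 10 genes, those named from the 4 lists are all that passed and up to 3 others a list with the smallest p. The other tested subunits of AMP-activated kinase (Prkaa1, Prkab1 and Prkag1) were named beside Prkaa2 and Prkag2 whatever their p. The 5 nearest profiles of Pygm and Pgm1 were drawn from probe sets with 1 symbol and an SD of at least 0.5 times the member's. Alternatives were other normalizations, pseudocounts (16, 64), filters (none, 60th percentile), eBayes settings, array weights, the title prefix as a block, subsets of captures, and each capture left out.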

Additional observations from a re-analysis of the deposited data

Results flagged for a closer look

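In the orbital layer, Pygm 1375476_at read 46.7 in capture 3, while the other 3 orbital captures read 74.9 to 79.2, which set that capture apart from its group. The 3′ to 5′ Gapdh quotient was highest in that capture (12.9), and the part of RNA length in this reading was not tested. Plpp7, a gene near Pygm in profile, read 373 in orbital capture 2, while the other orbital captures read 438 to 450. These are 2 of 98 groups of 4 captures looked at, where chance flags about 1 in 20 groups.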

How the results depend on the processing

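The count of glycogen probe sets lower in the orbital layer (6) was within 1.5 times under the other scalings, pseudocounts and eBayes settings tried, and with the brightest probe set of each gene (4). It was 3 without the filter, 2 within R2, 3 within R3, 2 with only captures 1 and 2 of the orbital layer, 2 with only captures 2 and 3 of the global layer and 2 to 5 on leaving out each capture. The count of higher ones (0) was 1, Phkb, with quantile normalization, with a filter at the 60th percentile and with averaged captures, and 0 to 1 on leaving out each capture. Of the other glycogen and glucose probe sets, 7 were lower, but 1 within R2, 3 within R3, 3 under that orbital subset, 4 under that global subset and 4 to 7 on leaving out each capture. The higher count there (0) was 1 with the 60th percentile filter, 1 with array weights, 3 with averaged captures and 0 to 1 on leaving out each capture. Over all probe sets, 333 were lower and 372 higher. With captures averaged per layer and prefix these were 541 and 688, within R2 61 and 45, within R3 90 and 80, under the orbital subset 184 and 179, and under the global subset 146 and 196. On leaving out each capture they were 217 to 344 lower and 241 to 381 higher. The subsets hold fewer captures than the main comparison, and no cause of these changes was tested.

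Directions reversed only where no call had been made. Pygm 1375476_at gave 0.077 within R2, 0.058 under the orbital subset, and -0.21 to 0.037 on leaving out each capture. Pygb gave -0.045 under the orbital subset, and Gbe1 -0.017 within R2. Phkg2 gave -0.086 within R3, -0.13 under the global subset, and -0.11 to 0.11 on leaving out each capture. Prkar2a 1375620_at gave -0.13 within R3 and -0.013 to 0.32 on leaving out each capture. Lamp2 1370010_at gave -0.12 within R2 and -0.034 to 0.30 on leaving out each capture.

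Captures of the same prefix but different layers had correlations of their deviations from the layer means of -0.005 to 0.111, and captures of different prefixes of -0.13 to 0.045. Same-prefix values thus tended to be higher, but most were under 0.1, and the prefix was not taken to pair captures. With the prefix as a fixed replicate block 6 glycogen probe sets were lower and 745 probe sets were called in all, against 705 without it. As a random block these were 5, with Gyg1 lost (adjusted p = 0.0598), and 651.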
